A study of Mus musculus with 6 samples.

Results

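The solute carriers are the large Slc superfamily of membrane proteins that move amino acids, sugars, nucleosides, metal ions, carboxylates and other small molecules across the plasma membrane and the membranes of organelles. Their members were taken by name: every probe set on the array whose only platform gene symbol starts with Slc and a number, without Slc7a1, Slc7a2, Slc2a1, Slc11a1 and Slc40a1. This gave 181 of 12488 probe sets, for 147 genes. A floor was set at a signal of 98.0, the 40th percentile of all values, below which signals were not told apart. Of the 181 probe sets, 135 (120 genes) were above the floor on at least 1 array and were tested, 79 of them were above it on all 6 arrays, and 46 were under it on every array. The name rule also takes in 3 proteins that are not carriers, the adaptors Slc9a3r1 and Slc9a3r2 and the protein Slc4a1ap, which binds a bicarbonate exchanger.

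RNA came from cells of the mouse peritoneal cavity, labelled as PEC or as peritoneal macrophages, all of strain C57BL/6. There were 3 genotypes: wild type (WT), mice lacking NF-IL6 (KO), which is the leucine-zipper factor C/EBPβ encoded by Cebpb, and a knock-in line named KI(LAP) in the labels (KI), LAP being the activating form of that factor. Cells of each genotype were left untreated or were given lipopolysaccharide (LPS) with interferon-γ, for 12 h in KO and KI cells and for a time not given in WT cells. Each of the 6 groups was 1 array, so no group had a replicate, and whether an array held cells of 1 mouse or of several is not given in the sources used here.

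Solute carriers work as exchangers, as cotransporters that use the sodium or proton gradient, or as facilitative carriers that move a substrate along its gradient. In macrophages they set the supply of metabolites on which activation depends, and several also remove metals or nutrients from compartments that hold microbes. Some act only in pairs, as when the heavy chain Slc3a2 carries light chains of the Slc7 family to the cell surface, and the large Slc25 family works in the inner membrane of mitochondria.

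The arrays were on 1 scale, with trimmed means of 500.3 to 500.4, and their median signal ran from 131 to 185, the highest being the untreated WT array. Between 98 and 111 of the 181 Slc probe sets were above the floor on any 1 array. Cebpb, the targeted gene, had signals of 12.7 and 59 on the untreated and stimulated KO arrays, under the floor, against 5492 and 9329 on the WT and 2284 and 5890 on the KI arrays. All 6 macrophage markers (such as Csf1r and Cd68) were above the floor on every array. None of 3 T and NK cell markers on the array was above it anywhere. All 4 B cell markers were, and their summed signals, untreated then stimulated, were 6271 and 3289 for WT, 5448 and 2296 for KO, and 1387 and 1500 for KI. The summed signal of 4 dendritic cell markers, of which Zbtb46 was under the floor throughout, was 1664 and 2493 for WT, 2723 and 3706 for KO, and 7759 and 3658 for KI. Itgax made up 7301 of the untreated KI sum, while Flt3 was lowest in KI cells in both states and Ccr7 in stimulated ones. Of 7 neutrophil markers 5 were above the floor on at least 1 array, of 3 eosinophil markers 1, of 5 mast cell markers 2, of 3 erythroid markers 2 and of 7 mesothelial and fibroblast markers 6.

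The first comparison asked which carriers changed with LPS and interferon-γ in all genotypes. It was fitted with limma over the 6 arrays with genotype as a block, on 2 residual degrees of freedom. Its error comes from the spread of the response between genotypes, which limma moderates with the variance of other probe sets of like intensity. With 1 array a group, that spread also holds differences between mice, cultures and arrays, which cannot be told apart from genotype. In the test with Benjamini-Hochberg adjustment over 9344 probe sets, 5 of 135 Slc probe sets passed with a higher and 7 with a lower signal after stimulation. These were 3 genes that rose, the copper importer Slc31a1, the iron importer Slc11a2 and the mitochondrial dicarboxylate carrier Slc25a10. The 7 genes that fell were the nucleoside transporter Slc29a1, the fatty acid transporter Slc27a1, the glutamine transporters Slc1a5 and Slc38a2, the creatine transporter Slc6a8, Slc66a2 and the monocarboxylate transporter Slc16a7. The shares, 3.70% and 5.19%, lay near those of all probe sets, 5.03% higher and 6.01% lower, so the Slc names as a set did not stand out by count. The median log2 change was -0.09 over the 135 Slc probe sets and -0.12 over all 9344. A change of 1 or more in log2 units within each of WT, KO and KI was seen for 4 of the higher and 5 of the lower calls, 2.96% and 3.70% of the Slc probe sets against 3.22% and 2.51% of all. At an unadjusted p under 0.05, 39 Slc probe sets and 2542 of all passed.

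With all probe sets tested and none filtered out for low signal, limma called 0 Slc probe sets higher and 1 lower, and only 49 and 20 of all 12422. The remaining call was Slc16a7 (limma adjusted p = 0.0492), whose stimulated values were all at the floor. Every other call was lost, among them Slc29a1, Slc66a2 and both Slc31a1 probe sets (limma adjusted p = 0.0742, 0.082, 0.0879 and 0.0854). With each array centred on its median, 3 were called higher and 4 lower, 7 of them among the 12, while all calls went from 470 higher and 562 lower to 269 and 113 and the median change of all probe sets from -0.12 to 0.

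**Figure D1:**
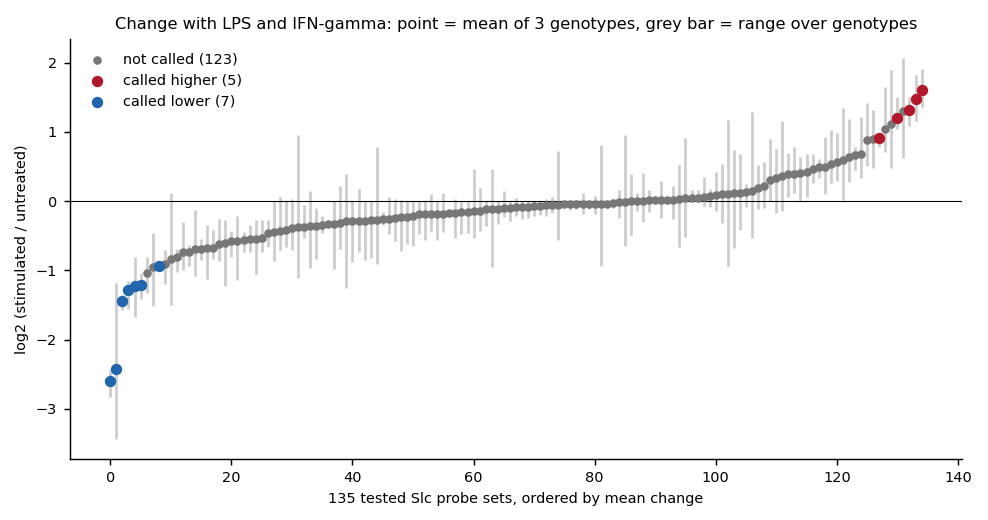
Mean log2 change with LPS and interferon-γ of the 135 tested Slc probe sets, in order, with the range over WT, KO and KI cells as grey bars; red points passed the limma test as higher (5) and blue points as lower (7). The means run from -2.60 (Slc29a1) to 1.60 (Slc31a1), and most lie near 0. Many ranges cross 0 or only touch it. Arrays that are both under the floor give a change of 0, which makes a range touch 0. Ranges that cross 0 come from genotypes with changes in opposite directions, as for Slc20a1.

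Carriers of iron, copper, manganese, magnesium and haem, a group apart from zinc carriers, held 2 of the 3 genes that rose, Slc31a1 and Slc11a2. None of the 12 tested zinc genes passed. The background for this and the later counts by role is 359 genes called higher and 443 lower of 6767 tested named genes. Slc31a1, which brings copper into the cell, had a signal of 1652 untreated and 4765 stimulated in WT, 1447 and 3718 in KO, and 1025 and 3842 in KI cells. All 3 stimulated arrays were above all 3 untreated ones, and the gene rose by a mean log2 change of 1.60 (SE 0.15, limma adjusted p = 0.00642), or 2.88-fold, 2.57-fold and 3.75-fold in WT, KO and KI. A separate Slc31a1 probe set also rose, from 652, 633 and 509 to 1852, 1340 and 1312 in WT, KO and KI (mean change in log2 units 1.32, SE 0.16, limma adjusted p = 0.0119). Of the 147 Slc genes, 15 had more than 1 tested probe set, and in 2 of these, Slc31a1 and Slc11a2, every tested probe set passed.

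Slc11a2, the importer of ferrous iron at the cell surface and in endosomes, rose on both of its probe sets. The brighter one read 868 and 1488 in WT, 779 and 1522 in KO, and 956 and 1887 in KI cells, untreated and stimulated (mean change in log2 units 0.91, SE 0.13, limma adjusted p = 0.0199). The other read 199 and 703, 276 and 756, and 354 and 786 in the same order (1.47, SE 0.23, limma adjusted p = 0.0219). On neither probe set did untreated and stimulated arrays overlap. The call of the first was lost without both KO arrays (limma adjusted p = 0.0705) and that of the second with median centring (limma adjusted p = 0.052). The haem transporter Slc48a1 and the magnesium transporter Slc41a1, the remaining members of this group of 4, had mean log2 changes of -0.83 and 0.01 that did not pass.

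The promoter of Slc31a1 is shown because it is the largest rise and its gene has 1 start in the RefSeq promoter table. The table (build GRCm38.p6) held 121 of the 147 Slc genes and 5 of the 10 called ones. The 250 bases before the start, chr4:62360451-62360700 on the plus strand, were searched on both strands for 6 motifs: C/EBP (TTGCNNCAA), NF-κB (GGANNTTCC), GAS (TTCNNNGAA), ISRE (AAANNGAAA), the amino acid response element (TGATGNAA) and the antioxidant response element (TGACNNNGC). Capitals mark the letters of the only motif matched, NF-κB:
Slc31a1: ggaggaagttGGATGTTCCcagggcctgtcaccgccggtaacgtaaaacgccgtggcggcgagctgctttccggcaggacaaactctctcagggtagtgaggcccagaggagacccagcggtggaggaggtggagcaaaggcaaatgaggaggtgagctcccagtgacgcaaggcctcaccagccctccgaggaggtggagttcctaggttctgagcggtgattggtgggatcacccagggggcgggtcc

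Those NF-κB letters occur in 3.59% of all 32851 promoter windows of this length and in 3.51% of the 171 Slc windows. The C/EBP letters occur in 1.74% of all and 0.585% of the Slc windows, and in none of the windows of the 5 called genes. A match is a run of letters, not a bound site.

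Among mitochondrial carriers 19 of 20 genes were tested and 1 was called. Slc25a10, which exchanges malate and succinate for phosphate, read 360 and 738 in WT, 269 and 762 in KO, and 412 and 865 in KI cells. All stimulated arrays were above all untreated ones, and the gene rose (mean change in log2 units 1.20, SE 0.20, limma adjusted p = 0.027), 2.05-fold, 2.83-fold and 2.10-fold in WT, KO and KI. This call was lost with median centring and without both KO arrays (limma adjusted p = 0.0522 and 0.083). Slc25a25, a carrier of ATP-Mg and phosphate, read 204 and 643, 435 and 732, and 582 and 949, and did not pass (1.04, SE 0.26, limma adjusted p = 0.0707). Slc25a15, the ornithine carrier of the urea cycle, had a change of -0.81 and Slc25a36 one of -0.74, neither past the test (limma adjusted p = 0.0908 and 0.0592). The citrate carrier Slc25a1, which exports citrate for fatty acid synthesis, read 2017 and 1499 in WT, 1761 and 1564 in KO, and 1349 and 1535 in KI cells on its brighter probe set, with a change of -0.14 short of the threshold. The median over the 19 genes was 0.02.

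**Figure D2:**
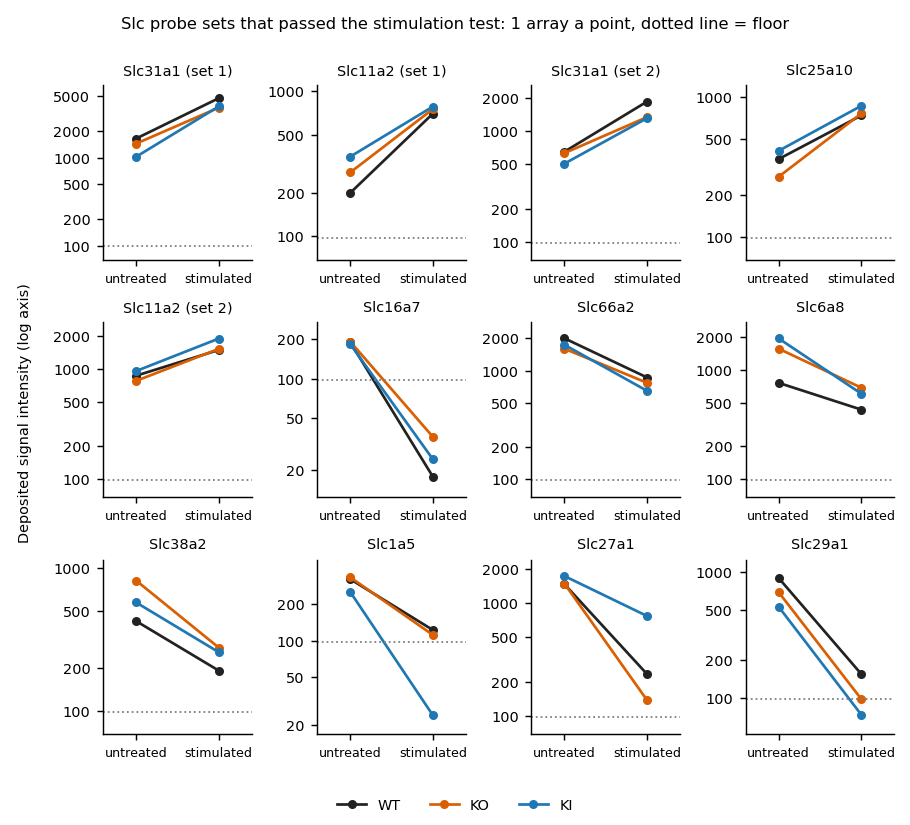
Deposited signal (log axis) of the 12 Slc probe sets that passed the stimulation test, untreated and stimulated, with 1 line for each of WT, KO and KI and a dotted line at the floor of 98.0; Slc31a1 and Slc11a2 have 2 probe sets each. In each panel the 3 lines run the same way, and Slc16a7, Slc1a5 and Slc29a1 end at or under the floor in at least 1 genotype.

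Of 18 amino acid carrier genes 15 were tested, 0 rose and 2 fell, with a median log2 change of 0.01. Slc1a5, which exchanges glutamine and other neutral amino acids, had WT signals of 321 untreated and 122 stimulated, KO signals of 332 and 111, and KI signals of 252 and 24.2, the last under the floor (mean change in log2 units -1.44, SE 0.21, limma adjusted p = 0.0193). Its call was lost with the floor at the 20th or the 60th percentile (limma adjusted p = 0.0594 and 0.184), and with the latter its change was -0.25. Slc38a2, a sodium-coupled transporter of glutamine and alanine, read 423 and 191 in WT, 812 and 276 in KO, and 571 and 256 in KI cells, with no overlap of the states. It fell by 1.29 on the log2 scale (SE 0.22, limma adjusted p = 0.0304), a call lost with median centring and without both KO arrays (limma adjusted p = 0.0724 and 0.11). Its 3 other probe sets were under the floor on all arrays.

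The promoter of Slc38a2 is shown beside that of Slc31a1 as a called gene of the opposite direction with 1 start in the table. It covers chr15:96699729-96699978 on the minus strand (GRCm38.p6), and capitals mark the letters of the only motif matched, the antioxidant response element letters, which 10.2% of all windows and 14% of the Slc windows hold:
Slc38a2: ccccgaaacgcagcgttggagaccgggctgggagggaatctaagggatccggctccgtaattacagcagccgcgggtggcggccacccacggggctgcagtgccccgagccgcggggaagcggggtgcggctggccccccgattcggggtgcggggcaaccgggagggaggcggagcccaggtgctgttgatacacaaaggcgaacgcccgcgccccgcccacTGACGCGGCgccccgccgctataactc

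Several other amino acid carriers had upward changes that did not pass. Slc7a11, the cystine importer that supplies glutathione synthesis, read 79.0 and 244 in WT, 37.7 and 185 in KO, and 81.0 and 136 in KI cells, all 3 untreated arrays under the floor (mean 0.90 in log2 units after flooring, SE 0.21, limma adjusted p = 0.0619). Slc7a8, a light chain for neutral amino acids, read 252 and 941, 774 and 1073, and 511 and 1002 (1.11, SE 0.31, limma adjusted p = 0.0874). The heavy chain Slc3a2 read 4770 and 6438, 3898 and 6263, and 5576 and 6676 (0.46, SE 0.13, limma adjusted p = 0.0966), and the large neutral amino acid light chain Slc7a5 had a change of 0.39. The states did not overlap for Slc7a11, Slc7a8 or Slc3a2, and did for Slc7a5.

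The largest falls lay outside these groups. Slc29a1, the equilibrative nucleoside transporter that also moves adenosine, had WT signals of 901 untreated and 155 stimulated, KO signals of 696 and 98.3, and KI signals of 533 and 73.8, the last under the floor. All stimulated arrays were below all untreated ones (mean change in log2 units -2.60, SE 0.24, limma adjusted p = 0.00605), 5.80-fold and 7.08-fold lower in WT and KO and at least 5.44-fold lower in KI. A weaker probe set of Slc29a1 read 220 and 177, 38.3 and 142, and 56.8 and 105, and did not pass (0.10), so the probe sets of this gene disagreed. The B cell markers were also lower after stimulation in WT and KO cells, all 4 of them, and in KI cells Ms4a1 (319 and 124) and Cd79b (128 and 106) were lower while Cd79a and Ighm were higher. Their part in the Slc29a1 result was not tested. In mixed cells, fewer cells of a type and less RNA per cell cannot be told apart. Slc29a2, the other nucleoside transporter on the array, was under the floor on all arrays.

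Slc27a1, which takes up long-chain fatty acids, had WT signals of 1473 untreated and 234 stimulated, KO signals of 1491 and 137, and KI signals of 1739 and 767. The untreated arrays were close together and the KI array was the highest of the stimulated ones. The gene fell (mean change in log2 units -2.43, SE 0.45, limma adjusted p = 0.0336), 6.30-fold, 10.9-fold and 2.27-fold in WT, KO and KI. The call was lost with median centring (limma adjusted p = 0.122) and narrowly without an intensity trend in the variance model (limma adjusted p = 0.0502). Of 6 genes for fatty acids and acetyl-CoA 3 were tested, and Slc27a4 and Slc33a1, the others, had changes of 0.60 and -0.06 that did not pass.

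Slc6a8, the creatine transporter, read 762 and 433 in WT, 1565 and 687 in KO, and 1942 and 606 in KI cells (mean change in log2 units -1.23, SE 0.21, limma adjusted p = 0.0297), with a call lost under median centring (limma adjusted p = 0.103). Of 14 genes in the Slc6, Slc17, Slc18 and Slc32 families, which carry amines, amino acids and related compounds, 11 were tested, 0 rose and Slc6a8 alone fell. For its relative Slc6a18 the mean was -1.04, short of the threshold (limma adjusted p = 0.06).

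Slc66a2, a membrane protein of the PQ-loop type, had WT signals of 1989 untreated and 866 stimulated, KO signals of 1596 and 774, and KI signals of 1735 and 652, without overlap (mean change in log2 units -1.22, SE 0.14, limma adjusted p = 0.0117). Slc16a7, a transporter of lactate, pyruvate and other monocarboxylates, had WT signals of 190 untreated and 17.8 stimulated, KO signals of 192 and 35.9, and KI signals of 184 and 24.2, under the floor in every stimulated state. After flooring, its mean fell by 0.94 in log2 units (SE 0.15, limma adjusted p = 0.025), at least 1.94-fold, 1.96-fold and 1.87-fold lower. All 3 stimulated values were then the floor itself, so the stimulated arrays had no spread and the floor set the size of the change. With the floor at the 20th percentile the change was -2.52. The call of Slc16a7 was lost without both KO or both KI arrays (limma adjusted p = 0.1 and 0.0592). Slc16a1, the widely expressed carrier of the same family, was under the floor on all arrays.

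**Figure D3:**
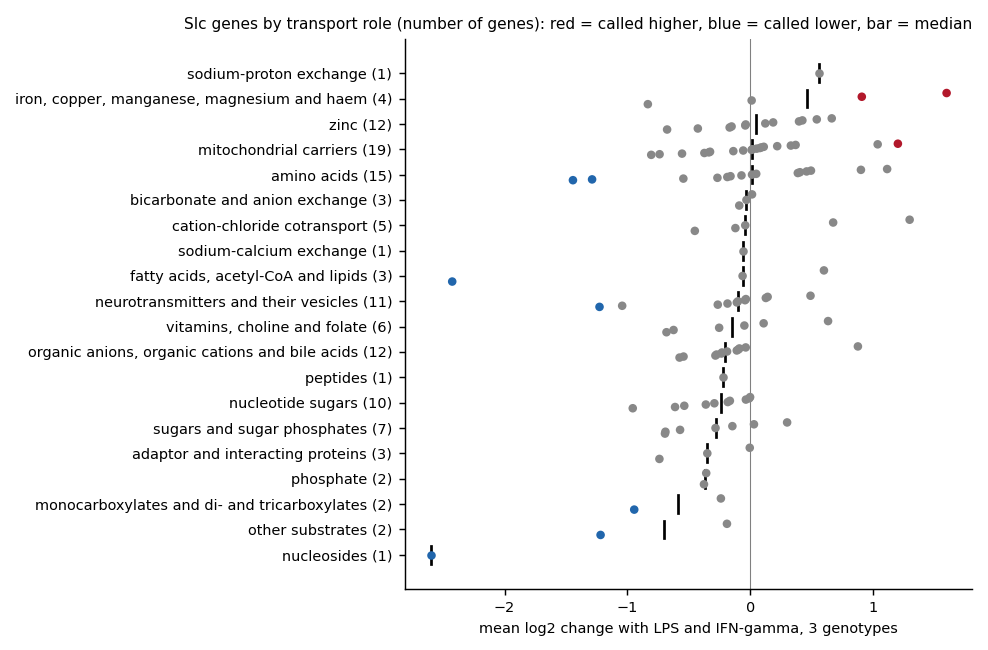
Mean log2 change with LPS and interferon-γ of 120 Slc genes (1 probe set each, the one with the highest mean log2 intensity), grouped by the transport role of their family, with the number of genes in brackets and a bar at the median. Red genes passed the limma test as higher and blue genes as lower; no zinc or nucleotide sugar carrier passed.

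Further genes had states that did not overlap and yet did not pass. Slc25a39, a mitochondrial carrier linked to glutathione, had signals of 1899 and 1138 in WT, 1598 and 1147 in KO, and 2078 and 1522 in KI cells (-0.56, SE 0.13, limma adjusted p = 0.0638). Slc7a7, a light chain for basic amino acids, had 587 and 460, 683 and 412, and 640 and 436 in the same order (-0.54, limma adjusted p = 0.145). Slc10a3, a relative of the bile acid carriers, had 898 and 512, 772 and 552, and 849 and 630 (-0.58, limma adjusted p = 0.107). All 3 were lower after stimulation in each genotype.

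Large groups without a call were zinc carriers, nucleotide sugar carriers and carriers of organic ions. Of all 9344 probe sets 5.03% passed as higher and 6.01% as lower. At such shares, 0 calls in groups of 10 to 12 genes do not set them apart. All 12 zinc genes were tested and none passed (median 0.04). They ran from -0.68 for Slc30a5, which loads zinc into the secretory pathway, to 0.66 for the zinc exporter Slc30a1, at 214 and 363 in WT, 282 and 484 in KO, and 202 and 276 in KI cells. The 10 genes counted as nucleotide sugar carriers are the Slc35 family, placed by family number without a check of each gene's substrate. All 10 had mean changes at or below 0, from -0.96 for Slc35e4 to -0.0012 for Slc35a2 (median -0.24), and none passed. Of the 135 tested Slc probe sets, 89 had a mean change below 0. Among 12 tested genes for organic anions, organic cations and bile acids, Slc22a17, a receptor-like member that binds lipocalin, had the largest change, 0.88, which did not pass (limma adjusted p = 0.127).

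Of 10 sugar and sugar phosphate genes 7 were tested and none passed (median -0.28). The largest changes were -0.69 for both the intracellular glucose transporter Slc2a8 and Slc50a1, and Slc2a3, a high-affinity glucose transporter, had one of 0.03. Slc5a6, which its family number places here, carries vitamins. Of the potassium-chloride cotransporters, Slc12a7 read 84.4 and 408 in WT, 326 and 759 in KO, and 460 and 704 in KI cells, with a mean of 1.30 short of the threshold (limma adjusted p = 0.0753), and Slc12a4 had one of 0.67. The ascorbate transporter Slc23a2 had a change of 0.63 and the choline transporter-like Slc44a2 one of -0.68, neither past the test. Over all 120 tested Slc genes the median was -0.10, against -0.13 over 6767 named genes.

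The 359 genes called higher and 443 called lower among all 6767 tested named genes are also the background for 2 lists of related genes. In a list of genes that power or chaperone carriers, 10 were tested, 1 rose and 0 fell. Atp1b3, a subunit of the sodium pump whose gradient drives many carriers, read 16639 and 21905 in WT, 12668 and 22452 in KO, and 12965 and 21412 in KI cells (mean change in log2 units 0.65, SE 0.14, limma adjusted p = 0.0497). Bsg and Emb, chaperones of monocarboxylate carriers, had changes of -0.29 and -0.59 that did not pass. Of 26 tested genes of the amino acid stress response, which shares targets with amino acid carriers, 4 rose and 0 fell (median -0.0045). They were Wars, the tryptophanyl-tRNA synthetase (1.84, limma adjusted p = 0.0117), Psat1, of serine synthesis (1.30, limma adjusted p = 0.0259), Mthfd2, of mitochondrial folate metabolism (1.28, limma adjusted p = 0.0237), and Eif4ebp1, a repressor of translation (0.97, limma adjusted p = 0.0432). The regulator Atf4 had a change of 0.14.

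Single arrays were then compared by size, without a test, taking a difference of 1 or more in log2 units. Among the 135 Slc probe sets 16 were higher in WT cells by that much after stimulation and 7 were lower, 11.9% and 5.19% against 8.54% and 10.1% of all probe sets. In KO cells 5 were higher and 12 lower, 3.70% and 8.89% against 6.54% and 9.69%. In KI cells 4 were higher and 12 lower, 2.96% and 8.89% against 5.58% and 8.01%. By these counts the balance of Slc probe sets was upward in WT and downward in KO and KI cells, while that of all probe sets was downward in each. The median log2 change of the 135 Slc probe sets was 0 in WT, -0.09 in KO and 0 in KI cells, against -0.12, -0.05 and 0 of all. The balance was seen for the probe sets past the cutoff and not in these medians. Medians of 0 cannot decide whether it extends to the Slc probe sets as a whole. Probe sets under the floor on both arrays of a genotype have a change of 0 by construction.

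Genotypes were next compared within each state, again by size and without a test. Untreated KO cells had 10 Slc probe sets above and 5 below WT, 7.41% and 3.70% against 6.30% and 4.30% of all. Untreated KI cells had 19 above and 9 below WT, 14.1% and 6.67% against 8.13% and 10.0%. In stimulated cells 0 were above and 3 below WT in KO, against 2.57% and 3.24% of all, and 3 were above and 3 below in KI, 2.22% each against 1.89% and 4.92%. Among the 51 Slc probe sets whose highest signal reached 532, the 75th percentile of all values, untreated WT gave the lowest of the 3 untreated signals in 26 (51%) and the highest in 15 (29.4%). Over the 4159 probe sets of that brightness the shares were 37% and 37.3%. Across all 135 tested Slc probe sets untreated WT was lowest in 47 (34.8%) and highest in 55 (40.7%), against 28.6% and 47% of all 9344. More were thus highest than lowest there, so the order in the 51 is not one of the Slc probe sets as a whole. On the stimulated arrays WT was lowest in 20 and highest in 20 of the 51. The untreated WT array enters every untreated comparison and the stimulated WT array every stimulated one, so counts within a state are not independent of each other.

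**Figure D4:**
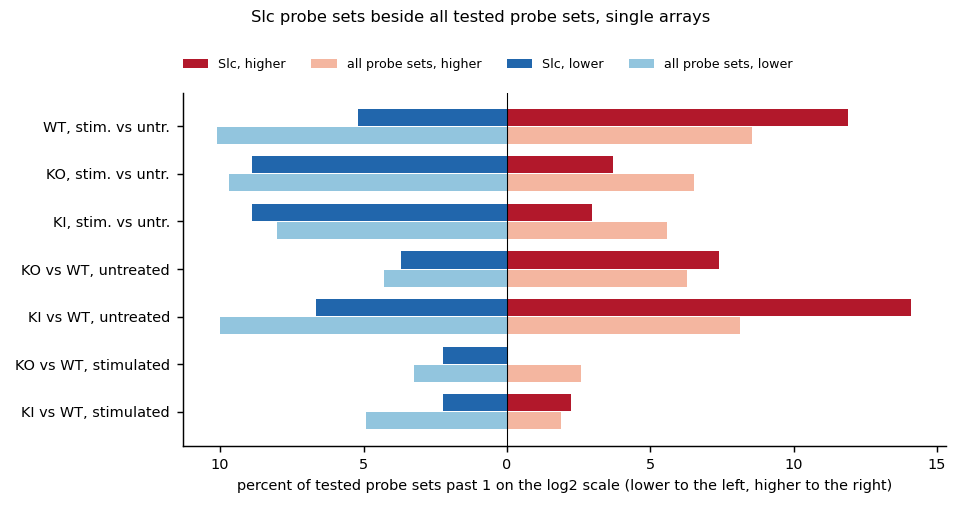
Percent of tested probe sets that differed by at least 1 on the log2 scale between single arrays, higher to the right and lower to the left of 0, for the 135 Slc probe sets (dark) and all 9344 (light). For untreated KI against WT the Slc share is 14.1% higher against 8.13% of all.

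Slc6a6, the taurine transporter, was among the genes lowest on the untreated WT array. Its brighter probe set read 1354 untreated and 3318 stimulated in WT, 4209 and 3341 in KO, and 6265 and 4326 in KI cells. The untreated WT array was the lowest of the 6, 3.11-fold below KO and 4.63-fold below KI, while the stimulated WT and KO arrays were nearly equal. A weaker Slc6a6 probe set, at 219 and 218, 365 and 152, and 249 and 325, did not show the same order. Slc38a10, related to glutamine transporters, read 426 and 734 in WT, 1092 and 680 in KO, and 1747 and 935 in KI cells, and Slc12a7, given above, was under the floor only in untreated WT cells, at least 3.33-fold below KO and 4.69-fold below KI.

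The sodium-calcium exchanger Slc8a1 read 198 and 325 in WT, 383 and 305 in KO, and 613 and 415 in KI cells. Slc7a8, Slc23a2 and Slc25a25 were likewise lowest on the untreated WT array, with 252, 694 and 204 there, 774, 1553 and 435 in untreated KO and 511, 1580 and 582 in untreated KI cells. In stimulated cells the 3 genotypes lay closer for each of these genes, for example 941, 1073 and 1002 for Slc7a8 in WT, KO and KI. Slc6a8, at 762 in untreated WT against 1565 and 1942 in KO and KI, had the same order.

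The log2 change with stimulation was lower by at least 1 in KO than in WT for 12 Slc probe sets and higher for 2, 8.89% and 1.48% against 7.18% and 5.36% of all. In KI it was lower for 15 and higher for 2, 11.1% and 1.48% against 8.87% and 6.77%. With the floor at the 20th percentile the counts became 25 lower and 21 higher in KO and 26 and 23 in KI, and with it at the 60th 6 and 0 in KO and 6 and 1 in KI, and with a pseudocount of 32 in place of the floor 15 and 11 in KO and 16 and 11 in KI. The excess of lower values was thus small at the 20th percentile and with the pseudocount.

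Slc20a1, the sodium-phosphate cotransporter, differed in both states. It read 229 and 442 in WT, 336 and 156 in KO, and 557 and 285 in KI cells, higher after stimulation in WT and lower in the others, with 2.84-fold less signal in stimulated KO than WT cells. Slc44a1, a choline transporter, read 255 and 572 in WT, 490 and 526 in KO, and 579 and 302 in KI cells, so that KI was the lowest genotype after stimulation and WT the lowest without it. Slc48a1, which moves haem out of phagolysosomes, read 657 and 715 in WT, 814 and 288 in KO, and 1659 and 760 in KI cells. It was 2.48-fold lower in stimulated KO than WT cells and 2.53-fold higher in untreated KI than WT cells. Among the tested Slc probe sets, Slc27a1 had the largest excess of stimulated KI over stimulated KO cells, 5.59-fold, and its KI signal was 3.28-fold above WT.

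**Figure D5:**
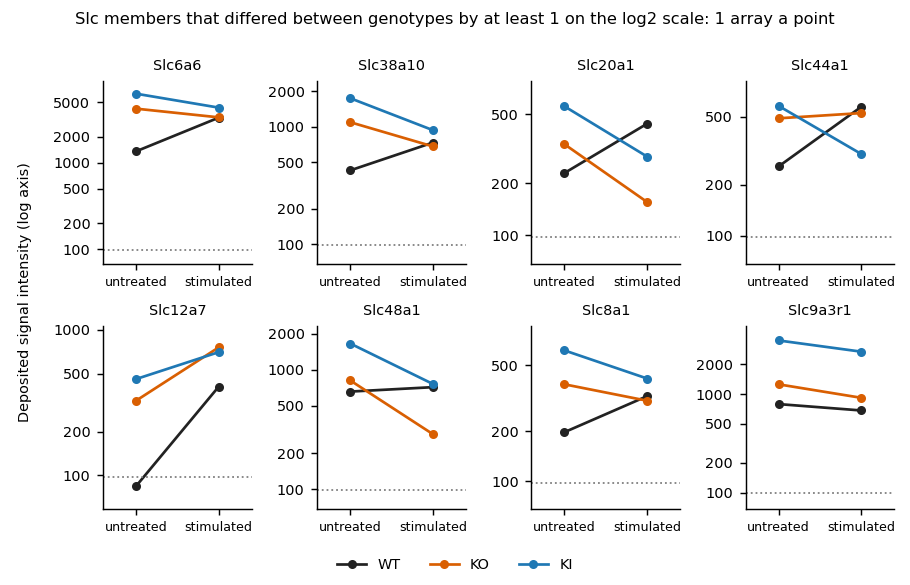
Deposited signal (log axis) of 8 Slc genes whose signal or change with stimulation differed between genotypes by at least 1 on the log2 scale, 1 array a point, with lines for WT, KO and KI and the floor of 98.0 dotted. In Slc6a6, Slc38a10, Slc12a7 and Slc8a1 the untreated WT array is the lowest point, and in Slc9a3r1 both KI arrays are the highest.

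Differences between genotypes across both states were fitted in the same additive model. No Slc probe set passed for KO against WT, KI against WT or KI against KO with limma and adjustment over all probe sets, where 0.00%, 0.0107% and 0.00% of all passed. At an unadjusted p under 0.05, 12, 25 and 14 Slc probe sets did, beside 946, 1598 and 703 of all 9344. The smallest adjusted p in KI against WT was that of Slc9a3r1, an adaptor that ties transporters and receptors to the actin cytoskeleton. It read 792 and 682 in WT, 1257 and 917 in KO, and 3509 and 2699 in KI cells. Both KI arrays were above all others, 4.43-fold and 3.96-fold over WT, untreated and stimulated, and 2.79-fold and 2.94-fold over KO. The mean log2 difference from WT was 2.07 (SE 0.16, limma adjusted p = 0.146). It passed with a pseudocount in place of the floor and with both KO arrays left out (limma adjusted p = 0.00716 and 0.0021). Of the 4 dendritic cell markers, Itgax was also highest on the KI arrays, at 7301 and 3141 against 816 and 1630 on the WT and 1799 and 1526 on the KO arrays. Flt3 ran the other way, at 375 and 138 on the KI against 746 and 414 on the WT and 756 and 262 on the KO arrays, and Ccr7 was lowest in KI of the stimulated arrays and under the floor in untreated WT and KI cells. The part of these markers in the result was not tested.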

How the data were processed

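Linear signal intensities of 12488 probe sets on 6 arrays were deposited by the authors, and the submitters' processing notes name MAS5 without a version; its scaling target is not given in the sources used here. Biotin-labelled cRNA was made from Trizol-extracted total RNA, per the labels' protocols. Arrays were brought to a common trimmed mean (2% cut from each end), floored at the 40th percentile and converted to log2, so changes that begin or end at the floor are understated and their folds are lower bounds. The 66 control probe sets were left out. Gene names came from the platform annotation; all 181 Slc probe sets matched RefSeq genes of GRCm38.p6 by gene identifier and 0 symbols changed. Tests used limma 3.58.1 in R 4.3.3 (lmFit, eBayes with an intensity trend), additive in genotype and state, with Benjamini-Hochberg adjustment over all tested probe sets at 0.05; the procedure was tested on simulated data. A gene's role follows its family number, and in counts of genes each gene stands as its brightest probe set by mean log2 signal. Named are the called genes, up to 4 per role by size of change, the largest genotype differences past 1 among probe sets reaching the 75th percentile, and called genes of both fixed lists. Promoter windows were cut to the bases before the start, leaving out the transcribed part that had been planned. The 8 genes plotted by genotype, the genes with non-overlapping states and the rule for opposite changes were chosen after their values were seen. Alternatives changed the floor, the scaling, the filter, the variance model, the counting unit and the arrays fitted. Members and lists were chosen with earlier results of these data known. With 1 array a group, the number of arrays limits the precision of every value, and none of the 15 array pairs held identical values.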

Additional observations from a re-analysis of the deposited data

Results flagged for a closer look

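For 6 Slc genes the log2 change with stimulation ran in opposite directions in 2 genotypes, by at least 0.3 in each and at least 1 apart, among probe sets whose highest signal reached the 75th percentile of all values. Each genotype has 1 array a state, so these differences were not tested. Slc20a1 was lower in KO than in WT by -2.06 and in KI by -1.92. Slc6a6 differed from WT by -1.63 in KO and -1.83 in KI, Slc38a10 by -1.47 and -1.69, and Slc8a1 by -1.05 and -1.28. Slc44a1 differed by -2.10 and Slc39a6, a zinc importer, by -1.10, both in KI against WT. In these 6 the change was upward in WT, whose 2 arrays enter every one of these differences. Dimmer probe sets that meet the same size rule ran both ways: the changes of Slc22a18 were -0.95 in WT and 0.46 in KO and those of Slc25a45 -0.68 and 0.74, while Slc35g3 had 0.81 and -0.94.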

How the results depend on the processing

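Each of the 10 called genes kept its direction in every one of 11 alternatives that tested it. The 12 called probe sets were followed in all alternatives but that of 1 probe set a gene, which gave 119 values. Of these, 95 kept their call, 24 lost it and 0 changed sign. Slc31a1 and Slc11a2 count with 2 probe sets each. The count of Slc probe sets called higher after stimulation, 5 as reported, became 9 with a pseudocount of 32 in place of the floor, 9 without both KI arrays, 3 with median centring, 3 with 1 probe set a gene and 0 without a filter on low values. The count called lower, 7 as reported, became 13 without both WT arrays, 4 with median centring and 1 without the filter. For KI against WT 1 Slc probe set, Slc9a3r1, was called with the pseudocount and without both KO arrays, and for KI against KO 1, the same gene, with the pseudocount and without both WT arrays, in place of 0. Induction differences past 1 from WT, 14 Slc probe sets in KO and 17 in KI, became 46 and 49 with the floor at the 20th percentile, 6 and 7 at the 60th, and 26 and 27 with the pseudocount. The causes were not tested. The stimulation test already pairs the 2 arrays of a genotype, and the samples carry no replicate numbers for another pairing. Signals near the floor limit what can be seen: 46 of 181 Slc probe sets were never above it.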
